A study of Homo sapiens with 20 samples.

Results

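Immune checkpoint ligands are proteins on the surface of a cell, or released by it, through which the cell holds back T cells, natural killer (NK) cells or myeloid cells. The 9 genes described here, CD274, PDCD1LG2, CD276, LGALS9, PVR, NECTIN2, CD47, TNFRSF14 and VSIR, were taken by name for that role, out of 43366 genes counted. Earlier results of these data were known when they were chosen. Their mRNA was measured by RNA-seq of polyadenylated RNA from U2OS, a human osteosarcoma cell line. The study asked how ZBTB48, a zinc finger protein that binds telomeric repeats and also promoters, takes part in the response to interferon gamma (IFNγ). It compared 5 WT clones with 5 ZBTB48 KO clones, and each clone was kept without IFNγ or given 250 U/ml of it for 24 h. The 4 groups are therefore untreated WT, IFNγ-treated WT, untreated ZBTB48 KO and IFNγ-treated ZBTB48 KO, with 5 libraries in each, 20 in all. The labels give no other allele or agent. Each library came from 1 clone, so the untreated and the treated library of a clone share whatever is peculiar to it. How the knockout was made in U2OS is not given in the sources used here.

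Counts per library added up to between 46652288 and 72952859. Values are given as CPM, counts relative to the TMM-scaled library total from edgeR, unless RPKM, which also divides by gene length, is named. ZBTB48 mRNA lay at 8.02 to 11.6 CPM over the 10 WT libraries and at 1.29 to 5.27 CPM over 8 of the 10 libraries labelled KO. The untreated and the treated library labelled KO replicate 3 stood at 11.3 and 15.8 CPM, within and above the WT range. An mRNA level does not show whether the protein was lost, which was not tested here. The wording "libraries labelled KO" is therefore used throughout. Values without replicate 3 are added where WT and KO are compared. Markers of osteosarcoma or mesenchymal cells summed to 5633 to 17583 CPM in all libraries, although COL1A2 and TWIST1 stayed under 1 CPM on average in every group. The 10 blood cell markers together reached 1.52 to 10.96 CPM, and CD8A had the highest mean of them in the treated WT clones, 5.84 CPM. The 6 epithelial markers together reached 4.44 to 71.9 CPM. The replicate numbers in the labels name the same clone with and without IFNγ, but the libraries labelled KO replicates 4 and 5 resembled each other's treated library more than their own, and values with those exchanged are given where they matter.

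The ligands act through distinct receptors. PD-L1 (encoded by CD274) and PD-L2 (PDCD1LG2) engage PD-1 on T cells. Galectin-9 (LGALS9) binds TIM-3. CD47 binds SIRPα on macrophages and is known as a signal against phagocytosis. HVEM (TNFRSF14) binds BTLA and CD160 as an inhibitory ligand, although it is itself a receptor of the TNF family. PVR and NECTIN2 share TIGIT as an inhibitory receptor and DNAM-1 (CD226) as an activating one. B7-H3 (CD276) and VISTA (VSIR) are relatives of PD-L1 with less settled receptors. IFNγ, released by activated T and NK cells, acts through the kinases JAK1 and JAK2 on genes with GAS elements, and then through IRF1, and PD-L1 is a long known target of that pathway.

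After IFNγ 5 of the 9 ligands were called higher in the WT clones, namely CD274, PDCD1LG2, LGALS9, CD47 and TNFRSF14. Under the KO label the first 4 of these were called, and TNFRSF14 was higher in 5 of 5 clones, 4.29-fold with a 95% interval of 1.16 to 15.9, without passing the cut-off. A gene was called where it had an over 2-fold change at an adjusted p below 0.01 in edgeR's quasi-likelihood test with Benjamini-Hochberg adjustment over all genes tested. In the WT clones 3% of the 19522 genes tested were called in either direction and 2.48% were called higher. Among the libraries labelled KO 1.96% of 19385 genes were called in either direction and 1.7% higher. With a replicate block for the clone, the same cut-offs called 1414 genes in place of 585 in the WT clones, and still 5 ligands. In the libraries labelled KO the block as labelled called 721 genes in place of 379, and still 4 ligands. With the treated partners of KO replicates 4 and 5 exchanged, the block called 1208 genes there and 5 ligands. The untreated and treated libraries did not overlap for 6 ligands in the WT clones and 4 in the libraries labelled KO, all higher after IFNγ. Of all genes tested 6.68% and 6.07% were higher without overlap, and 4.43% and 3.48% lower. No ligand was called lower, as were 0.512% and 0.258% of genes. VSIR did not pass the filter on low counts in any comparison, so 8 of the 9 were tested, LGALS9 with as few as 6 counts in an untreated library. The median log2 fold change over the 8 was 1.87 in the WT clones and 1.76 in the libraries labelled KO, against -0.03 for all genes tested in both, which is a description only. As RNA was taken from whole cultures, more cells with a transcript and more transcript per cell cannot be told apart.

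**Figure D1:**
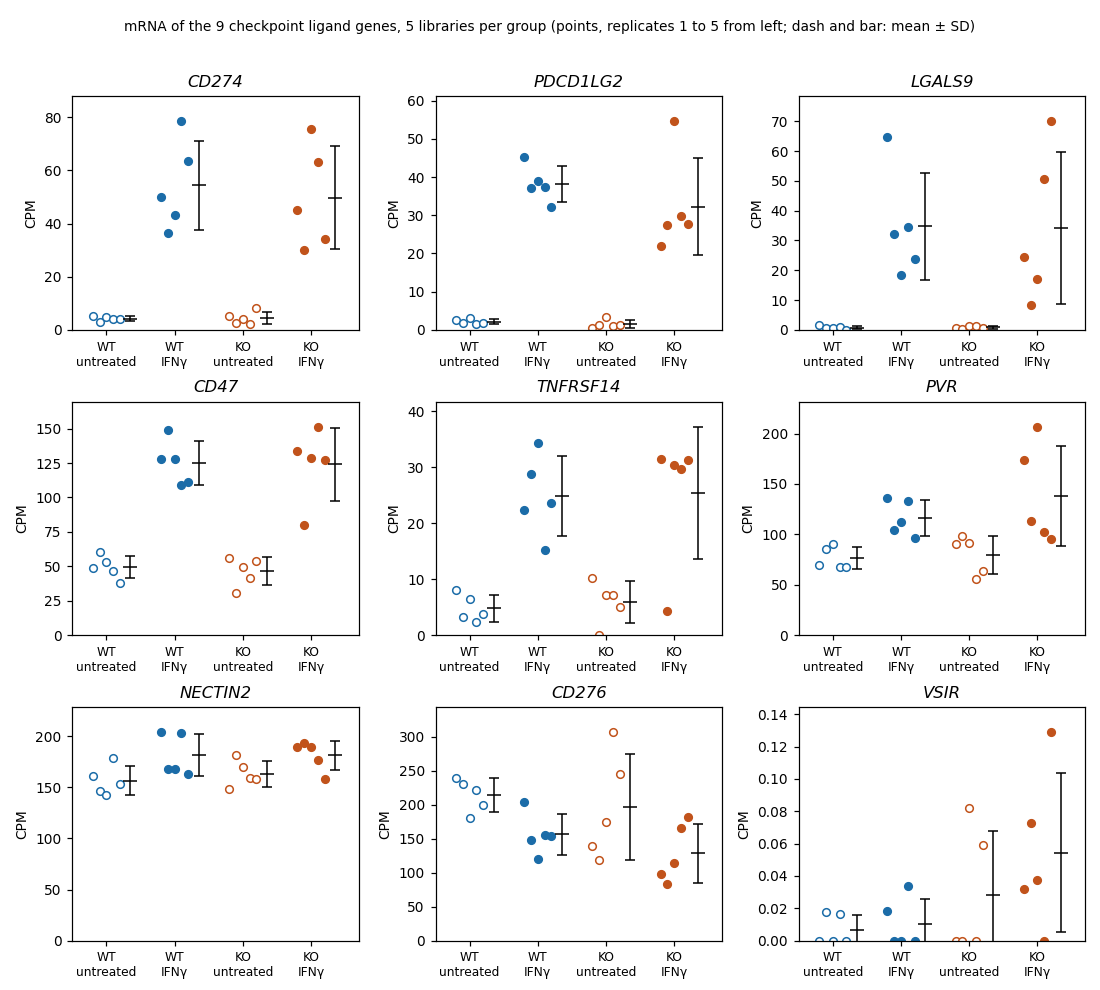
CPM of each ligand gene in every library, with open points for untreated and filled points for IFNγ-treated libraries, replicates 1 to 5 from left to right, and the mean ± SD of each group (bars are clipped at 0). The treated points of CD274, PDCD1LG2, LGALS9 and CD47 lie above all untreated points of their genotype, those of NECTIN2 and CD276 overlap the untreated ones, and the axis of VSIR ends below 1 CPM.

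The ligands of PD-1 rose steeply from a low level. CD274 lies on the forward strand of chromosome 9 of GRCh38 from 5450542 to 5470554. In the untreated WT clones CD274 stood at 5.29, 3.03, 4.85, 4.12 and 3.93 CPM, and after IFNγ at 49.98, 36.3, 43.3, 78.5 and 63.5 CPM. In the untreated libraries labelled KO it stood at 5.17, 2.73, 4.18, 2.38 and 8.03 CPM, and after IFNγ at 45.2, 29.9, 75.6, 63.3 and 34.3 CPM. Every treated library lay above every untreated one in both genotypes, and the WT and KO ranges overlapped in both conditions. The log2 fold change was 3.69 in the WT clones (SE 0.25, adjusted p = 4.56e-06 by edgeR), a 12.9-fold rise with a 95% interval of 8.89 to 18.8. With the KO label it was 3.46 (SE 0.39, adjusted p = 0.000393 by edgeR), an 11.04-fold rise with an interval of 6.10 to 19.96.

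PDCD1LG2, the gene of the other PD-1 ligand, follows CD274 on the same strand of chromosome 9 from 5510531 to 5571282. It rose from 2.56, 1.73, 3.15, 1.43 and 1.89 CPM to 45.3, 37.2, 38.9, 37.5 and 32.2 CPM in the WT clones. In the libraries labelled KO it rose from 0.541, 1.23, 3.24, 0.961 and 1.25 CPM to 22.1, 27.4, 54.6, 29.7 and 27.6 CPM. Even the lowest treated library, KO replicate 1, lay far above the highest untreated one, KO replicate 3. Its log2 fold change was 4.17 (SE 0.23, adjusted p = 9.35e-07 by edgeR) in the WT clones and 4.47 (SE 0.48, adjusted p = 0.000274 by edgeR) in the libraries labelled KO. The treated WT libraries of PDCD1LG2 were closer together than those of CD274, with a coefficient of variation of 12.3% against 31.0%, a difference that was not tested. Of the 16 other genes that start within 500 kb of these 2, 9 were tested in the WT clones and 2 were called, JAK2 and LOC124902114, both higher. In the libraries labelled KO 10 were tested and JAK2 alone was called. Over all genes tested 3% and 1.96% were called. LOC124902114 was close to both cut-offs in the WT clones (log2 fold change 1.08, adjusted p = 0.00967 by edgeR). Under the KO label it was at 0.66 (adjusted p = 0.292 by edgeR). JAK2, a kinase of the IFNγ receptor, rose by 1.89 on the log2 scale in the WT clones and by 1.71 in the libraries labelled KO.

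LGALS9 had the largest fitted fold change of the 8 tested ligands in both genotypes by edgeR, whereas with DESeq2's shrinkage PDCD1LG2 came first, at log2 fold changes of 3.66 against 2.84 in the WT clones and 2.94 against 2.698 under the KO label. With that shrinkage CD274 also stood above LGALS9 in the WT clones, at 3.15, and below it under the KO label, at 2.51. LGALS9 lies on chromosome 17 from 27631188 to 27649560. Before IFNγ it was close to the limit of the counts, with 6 to 98 counts per WT library and 16 to 80 per library labelled KO. The WT clones went from 1.63, 0.635, 0.467, 0.815 and 0.106 CPM to 64.8, 32.2, 18.5, 34.4 and 23.7 CPM. The libraries labelled KO went from 0.772, 0.324, 1.32, 1.30 and 0.514 CPM to 24.6, 8.26, 17.2, 50.8 and 70.0 CPM. Untreated and treated libraries were far apart, but within the treated groups the highest library stood 3.51 times above the lowest in the WT clones and 8.48 times in the libraries labelled KO, the widest spread of any ligand there. The log2 fold change was 5.57 in the WT clones (SE 0.61, adjusted p = 0.00019 by edgeR) and 5.32 in the libraries labelled KO (SE 0.66, adjusted p = 0.000784 by edgeR). Without KO replicate 1 the call in the libraries labelled KO was lost at an edgeR adjusted p of 0.0102, with a log2 fold change of 5.41. The near-identical copies LGALS9B and LGALS9C held 0 to 9 counts per library, and since only uniquely mapped reads were counted, the level of LGALS9 is uncertain to the extent that reads fit more than 1 copy.

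Promoter sequences were searched for letters that IFNγ-activated factors are known to bind. Of the 9 ligands 8 had an entry in the RefSeq promoter table (GRCh38.p14, 250 bases before to 50 bases after a start site). PDCD1LG2 had none. CD274 and LGALS9 are shown because they rose and hold a match, and CD47 because it rose and holds none. The windows are chr9:5450292-5450591 on the forward strand for CD274, chr17:27630938-27631237 on the forward strand for LGALS9 and chr3:108090982-108091281 on the reverse strand for CD47. Capitals mark the matches, and each line reads 5′ to 3′ along the gene.
CD274: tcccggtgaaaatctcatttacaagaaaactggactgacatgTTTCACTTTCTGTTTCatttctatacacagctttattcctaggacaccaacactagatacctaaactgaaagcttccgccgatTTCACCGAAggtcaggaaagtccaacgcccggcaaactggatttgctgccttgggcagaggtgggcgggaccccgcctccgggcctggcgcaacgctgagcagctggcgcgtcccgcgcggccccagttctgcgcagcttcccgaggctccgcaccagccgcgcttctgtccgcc
LGALS9: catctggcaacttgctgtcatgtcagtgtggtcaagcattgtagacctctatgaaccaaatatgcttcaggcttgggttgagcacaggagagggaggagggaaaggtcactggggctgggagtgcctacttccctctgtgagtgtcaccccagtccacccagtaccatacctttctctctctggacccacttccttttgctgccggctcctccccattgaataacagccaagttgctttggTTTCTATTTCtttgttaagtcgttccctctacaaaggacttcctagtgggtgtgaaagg
CD47: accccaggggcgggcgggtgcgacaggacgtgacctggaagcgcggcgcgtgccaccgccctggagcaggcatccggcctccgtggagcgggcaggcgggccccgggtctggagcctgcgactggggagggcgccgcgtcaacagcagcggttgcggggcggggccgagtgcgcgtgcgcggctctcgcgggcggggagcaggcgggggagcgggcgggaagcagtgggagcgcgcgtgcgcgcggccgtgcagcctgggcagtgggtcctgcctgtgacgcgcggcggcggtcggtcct
The searched letters were a pair of GAAA with 2 bases of any kind between them, on either strand, as bound by IRF factors, and the GAS element TTCNNNGAA, which reads the same on both strands. The start site is position 1 and the base before it is -1. CD274 held 2 IRF pairs that overlap each other, at -208 to -199 and at -202 to -193, and 1 GAS at -125 to -117. LGALS9 held 1 IRF pair, at -9 to 1. Of 35116 promoters in the table, 3.57% held the IRF pair and 7.66% the GAS letters. The NF-kB letters, GGG and after 2 bases of any kind TTTCC on either strand, held by 1.91% of promoters, were in none of the windows of the ligands. The telomere repeat TTAGGG, on either strand, to which ZBTB48 is known to bind, was held by 9.05% of all promoters and among the ligands by NECTIN2, at -198 to -193. The windows of CD47, TNFRSF14, PVR, CD276 and VSIR held none of these letters. The window of TNFRSF14, chr1:2556121-2556420, and those of CD276, chr15:73684133-73684432 and chr15:73684520-73684819, lie inside the counted gene spans. Bases before the first counted base of TNFRSF14 and CD276 were not searched.

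CD47 was already expressed before IFNγ and rose moderately. The gene lies on the reverse strand of chromosome 3 from 108043091 to 108091031. The WT clones stood at 49.2, 60.5, 52.8, 46.6 and 38.3 CPM untreated and at 128.1, 148.7, 127.9, 108.8 and 111.2 CPM after IFNγ. The libraries labelled KO stood at 55.8, 31.0, 49.6, 41.3 and 54.1 CPM untreated and at 134.0, 80.2, 128.4, 151.5 and 126.9 CPM after IFNγ. All treated libraries lay above all untreated ones, and KO replicate 2 was the lowest of its group in both conditions. The rise was 2.55-fold in the WT clones (95% interval 2.08 to 3.13, log2 fold change 1.35, SE 0.13, adjusted p = 8.74e-05 by edgeR). Under the KO label it was 2.68-fold (95% interval 1.97 to 3.63, log2 fold change 1.42, SE 0.20, adjusted p = 0.00194 by edgeR). Without replicate 1, 3, 4 or 5 the KO call missed the cut-off, at edgeR adjusted p values of 0.0140, 0.0195, 0.0247 and 0.0165 and log2 fold changes of 1.49, 1.44, 1.30 and 1.48. Without replicate 1, where the call of LGALS9 was lost too, 2 of the 9 ligands remained called in the libraries labelled KO, CD274 and PDCD1LG2. Over all genes the number called there fell from 379 to 167 without replicate 1. It was 160, 131 and 142 without replicates 3, 4 and 5.

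**Figure D2:**
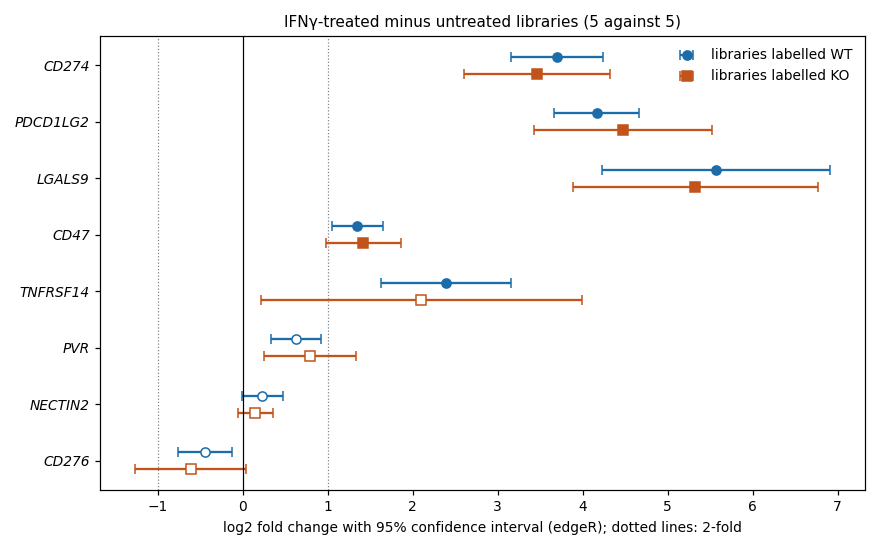
Log2 fold change of the 8 tested ligands after IFNγ, with the 95% confidence interval from edgeR, for WT libraries (circles) and libraries labelled KO (squares). Filled symbols were called (adjusted p under 0.01 and over 2-fold), LGALS9 lies farthest right at 5.57 and 5.32, and the interval of TNFRSF14 in the libraries labelled KO, 0.21 to 3.99, is the widest.

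TNFRSF14, on chromosome 1 from 2554234 to 2563829, rose in the WT clones, while in the libraries labelled KO replicate 2 stood apart from the other 4. The WT clones went from 8.08, 3.30, 6.48, 2.31 and 3.77 CPM to 22.4, 28.8, 34.4, 15.2 and 23.7 CPM. The libraries labelled KO went from 10.3, 0.0202, 7.19, 7.13 and 4.99 CPM to 31.5, 4.28, 30.3, 29.7 and 31.3 CPM. All treated WT libraries lay above the untreated ones, and so did the treated libraries labelled KO apart from replicate 2. The log2 fold change in the WT clones was 2.39 (SE 0.35, adjusted p = 0.0013 by edgeR), a 5.24-fold rise with an interval of 3.08 to 8.91. That call was lost without WT replicate 2 (log2 fold change 2.23, adjusted p = 0.0143 by edgeR), without WT replicate 5 (2.34, adjusted p = 0.0103 by edgeR) and with all 20 libraries in 1 fit (2.38, adjusted p = 0.0407 by edgeR). In the libraries labelled KO the log2 fold change was 2.10 (SE 0.86, adjusted p = 0.166 by edgeR), which was not called. Without KO replicate 2 it was 2.05 and was called (adjusted p = 0.000386 by edgeR). It was also called in the fit with a replicate block and with the treated partners of KO replicates 4 and 5 exchanged (2.38, adjusted p = 0.00897 by edgeR), but not with the block as labelled (2.48, adjusted p = 0.0136 by edgeR).

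In KO replicate 2 TNFRSF14 had 1 count before IFNγ and 293 after, a ratio of 212 with a 95% counting interval of 37.7 to 8384. In the other 9 clones the treated library held 2.77 to 8.72 times the untreated CPM. This replicate was singled out after its values had been seen. Only TNFRSF14 and PAWR had at most 3 counts in it and at least 100 in each of the other 9 untreated libraries, and each of those 9 had 0 to 2 such genes of its own. Of the 14 other genes within 500 kb of TNFRSF14 with at least 50 counts in 1 library, 10 (71.4%) were lowest in KO replicate 2 among the 10 untreated libraries, against 15.0% of 17917 genes in all. Both conditions had it lowest for 9 of the 14 (64.3%), against 8.08% of all genes. RER1, for example, stood at 29.8 CPM in it and at 53.5 to 68.2 CPM in the other untreated libraries, and FAAP20 at 20.1 against 39.3 to 52.7 CPM. TNFRSF14 shares 905 exonic bases with TNFRSF14-AS1 on the opposite strand, which held 0 to 66 counts per library, and the strand setting of the counting is not given in the sources used here.

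**Figure D3:**
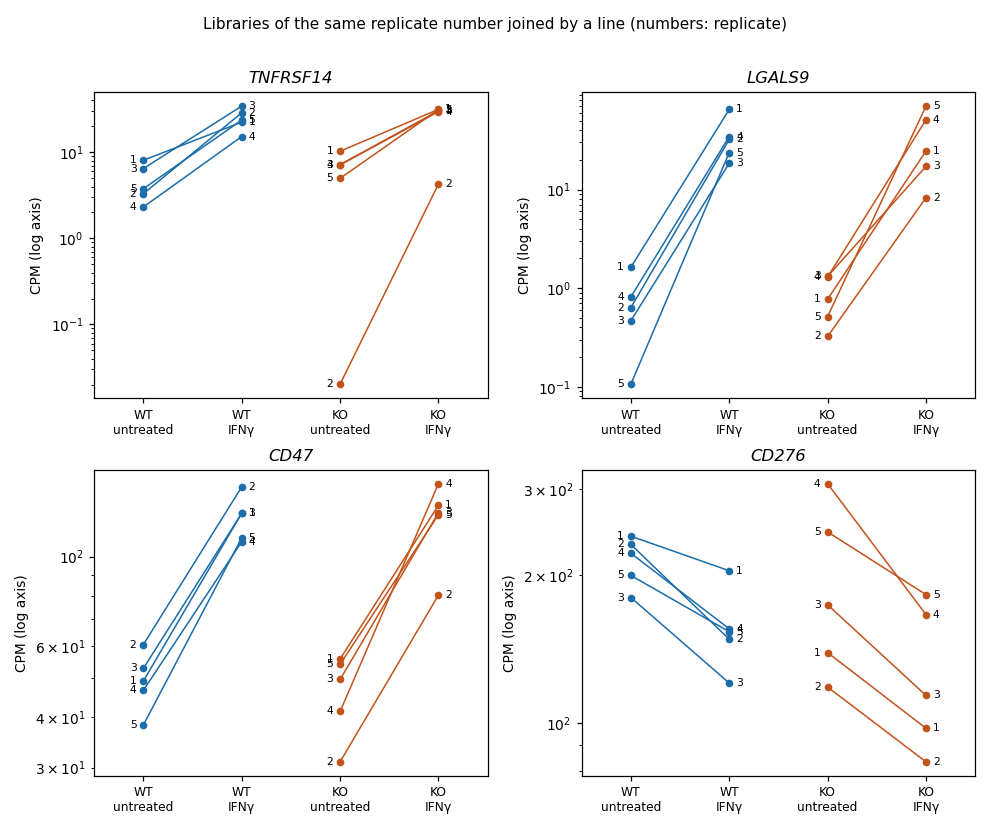
CPM on a log axis of 4 ligands in untreated and treated libraries, with libraries of the same replicate number joined and numbered. All lines of TNFRSF14, LGALS9 and CD47 point upward and all lines of CD276 downward, and KO replicate 2 starts at 0.0202 CPM of TNFRSF14, below every other library.

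The ligands of TIGIT stayed under the cut-offs. PVR, on chromosome 19 from 44643910 to 44666162, stood at 70.0, 85.6, 90.4, 67.9 and 67.3 CPM in the untreated WT clones and at 136.4, 104.0, 112.1, 133.5 and 96.2 CPM after IFNγ. The libraries labelled KO stood at 90.4, 97.9, 91.2, 55.9 and 63.6 CPM untreated and at 173.8, 113.0, 207.0, 102.1 and 95.3 CPM after IFNγ. The WT groups did not overlap, and the groups labelled KO overlapped only through the treated replicate 5, which lay below the untreated replicate 2. The log2 fold change was 0.63 in the WT clones (SE 0.13, adjusted p = 0.0121 by edgeR) and 0.79 in the libraries labelled KO (SE 0.25, adjusted p = 0.0749 by edgeR). Neither was called, as both lie under 2-fold and above the cut-off on p, though PVR was higher after IFNγ in 5 of 5 clones of each genotype. The exact permutation test of log2 CPM gave p = 0.00794 for the WT clones, the smallest that 5 against 5 libraries allow, and p = 0.0159 for the libraries labelled KO. PVR shares 303 exonic bases with CEACAM19 on the same strand, so that the counts of either in those bases are uncertain.

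NECTIN2 lies on chromosome 19 from 44846297 to 44889223 and was the steadiest of the expressed ligands. Its 20 values ran from 142.5 to 204.0 CPM. The untreated WT clones held 142.5 to 178.2 CPM and the treated ones 162.8 to 204.0 CPM, and the libraries labelled KO held 148.7 to 181.1 CPM untreated and 158.4 to 193.0 CPM treated. Its log2 fold change was 0.23 in the WT clones (95% interval -0.01 to 0.47, adjusted p = 0.222 by edgeR) and 0.15 in the libraries labelled KO (95% interval -0.06 to 0.36, adjusted p = 0.381 by edgeR). A 2-fold change lay outside both intervals. The treated library was the higher one in 5 of 5 clones of each genotype as labelled. Once the treated partners of KO replicates 4 and 5 were exchanged, it was higher in 4 of 5 pairs labelled KO. With a replicate block for the clone the log2 fold changes of NECTIN2 were 0.23 (adjusted p = 0.0017 by edgeR) and 0.15 (adjusted p = 0.21 by edgeR). With that exchange the KO value was again 0.15 (adjusted p = 0.112 by edgeR).

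CD276, on chromosome 15 from 73683944 to 73714514, was the only tested ligand with lower values after IFNγ. The WT clones stood at 240.3, 231.1, 180.2, 221.8 and 199.9 CPM untreated and at 204.3, 148.1, 120.6, 155.5 and 153.5 CPM after IFNγ. The libraries labelled KO stood at 139.2, 118.4, 174.2, 307.3 and 245.1 CPM untreated and at 97.6, 83.4, 113.8, 166.3 and 182.7 CPM after IFNγ. The untreated and treated groups overlapped in both genotypes, while the treated library was the lower one in 5 of 5 clones of each. The log2 fold change was -0.44 in the WT clones (SE 0.15, adjusted p = 0.0772 by edgeR) and -0.61 in the libraries labelled KO (SE 0.30, adjusted p = 0.242 by edgeR), and neither was called. Fitted with a replicate block for the clone, the values were -0.45 (adjusted p = 8.95e-05 by edgeR) and -0.59 (adjusted p = 0.00475 by edgeR), again under 2-fold. With the treated partners of KO replicates 4 and 5 exchanged, the KO value was -0.59 (adjusted p = 0.000151 by edgeR). The exact sign-flip test of the within-clone differences gave p = 0.0625 for either genotype, the smallest that 5 clones allow.

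VSIR, on chromosome 10 from 71747556 to 71773520, had 0 to 2 counts per library in the WT clones and 0 to 7 in the libraries labelled KO. With 3 counts taken as the floor, its mRNA was not detectable at this depth in any WT library, and no fold change is given.

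Compared per length, the rank order of the ligands was not the same before and after IFNγ. NECTIN2 was highest in every group, with a mean of 45.9 ± 4.17 RPKM (SD, n = 5) without and 53.2 ± 6.06 RPKM (SD, n = 5) with IFNγ in the WT clones. In the untreated WT clones CD276 (13.5 ± 1.54 RPKM, SD, n = 5) and PVR (12.7 ± 1.82 RPKM, SD, n = 5) followed with overlapping ranges, and then CD47 with 9.10 ± 1.505 RPKM (SD, n = 5). TNFRSF14, CD274, PDCD1LG2 and LGALS9 came next, from 1.40 down to 0.379 RPKM on average, each overlapping its neighbour. After IFNγ CD47 held 23.0 ± 2.96 RPKM (SD, n = 5) in the WT clones, and PVR, LGALS9, PDCD1LG2, CD274, CD276 and TNFRSF14 followed from 19.5 down to 7.28 RPKM. No neighbours in that order differed beyond their ranges from CD47 to TNFRSF14. Under the KO label the order in each condition was that of the WT clones, apart from PVR. There PVR stood ahead of CD276 before IFNγ and ahead of CD47 after it, with overlapping ranges. CD276 has the longest counted length, 15852 bases, against 1927 for LGALS9, so its place by RPKM is lower than by CPM.

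Between WT clones and libraries labelled KO none of the 9 ligands was called. In untreated libraries 0 of 8 tested were called, against 0.0154% of the 19505 genes tested, and in treated libraries 0 of 8, against 0.0155% of 19383 genes. DESeq2 called 0 as well, and no ligand had an unadjusted p under 0.05 in edgeR's quasi-likelihood test in either condition. No ligand had WT and KO values that did not overlap, against 0.625% of genes with WT higher and 0.379% with WT lower in untreated libraries and 0.506% and 0.299% in treated ones. In untreated libraries the log2 differences, WT minus KO, ran from -0.32 for TNFRSF14 to 0.57 for PDCD1LG2, and in treated libraries from -0.24 for PVR to 0.28 for CD276. Missing the cut-off does not show that the genotypes are alike, and the intervals say how far apart the groups as labelled could be. KO replicate 3 is among those libraries, and intervals without it are not given here. For CD274 the 95% interval ran from -0.81 to 0.63 untreated and from -0.48 to 0.73 treated, so a 2-fold difference lay outside both. The same held for PVR, NECTIN2, CD47 and CD276 in both conditions, and for PDCD1LG2 and TNFRSF14 in treated libraries. The intervals of LGALS9 reached past 2-fold on both sides untreated and treated, as did that of TNFRSF14 untreated (-2.10 to 1.46), and that of PDCD1LG2 untreated reached 1.52.

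**Figure D4:**
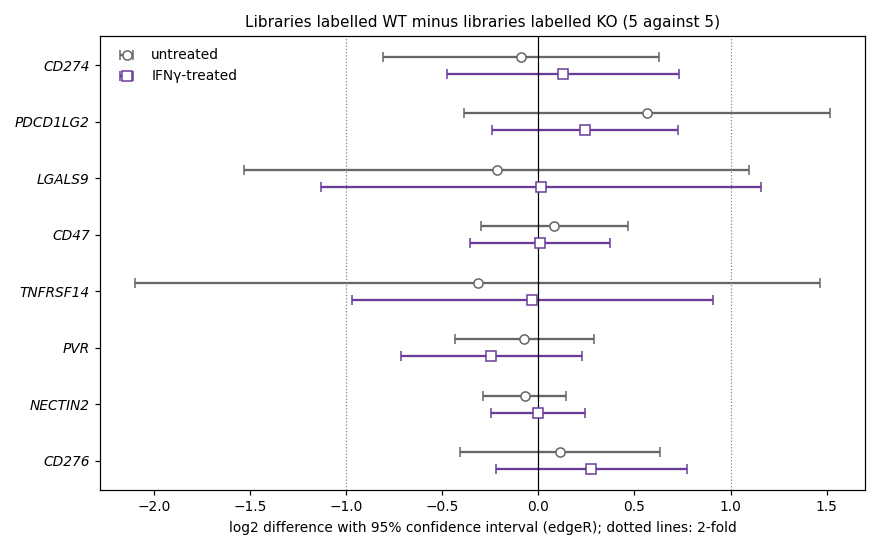
Log2 difference of the 8 tested ligands between WT libraries and libraries labelled KO, with the 95% confidence interval from edgeR, untreated (circles) and IFNγ-treated (squares). Every interval crosses 0 and no symbol is filled, as none was called, and the widest interval, -2.10 to 1.46, is that of TNFRSF14 in untreated libraries.

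Without KO replicate 3, whose ZBTB48 mRNA was at WT level, 0 of 8 ligands were called between WT and KO in either condition. PDCD1LG2 then differed most, with WT higher by 1.10 on the log2 scale in untreated libraries (adjusted p = 0.999 by edgeR) and by 0.52 in treated ones (adjusted p = 0.997 by edgeR), against 0.57 and 0.24 with it. This replicate held the highest PDCD1LG2 value of the libraries labelled KO both untreated (3.24 CPM) and treated (54.6 CPM). In the libraries labelled KO 3 of the 9 ligands and 160 of all genes were called after IFNγ without it, against 4 and 379 with it. CD47 missed the cut-off, at a log2 fold change of 1.44 against 1.42. The call of CD47 was also lost without replicate 1, 4 or 5. For TNFRSF14 in untreated libraries the fitted difference was -0.32, but the mean difference in log2 CPM was 0.68, in which the single count of KO replicate 2 enters as a logarithm. Without that replicate the fitted difference was -0.64 (adjusted p = 0.841 by edgeR).

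The size of the IFNγ response itself was compared between genotypes over all 20 libraries. None of the 8 tested ligands was called, none had an unadjusted p under 0.05, DESeq2 called 0, and 0% of 21052 genes were called. The response of WT minus that of the libraries labelled KO ranged from -0.32 for PDCD1LG2 to 0.28 for TNFRSF14 on the log2 scale. For CD274 it was 0.21 with a 95% interval of -0.70 to 1.13, and for CD47 it was -0.09 with an interval of -0.60 to 0.42. The intervals of CD274, PDCD1LG2 (-1.34 to 0.69), LGALS9 (-1.49 to 1.96) and TNFRSF14 (-1.72 to 2.28) reached past 2-fold, while those of CD276, PVR, NECTIN2 and CD47 did not. That fit left out the pairing of untreated and treated libraries by clone, so differences between clones enter these intervals. Without KO replicate 3 again 0 of 8 were called, and the difference was 0.44 for CD274, -0.59 for PDCD1LG2, -0.15 for LGALS9 against 0.23 with it, and -0.10 for CD47. Within clones the CD274 response averaged 3.64 ± 0.48 (SD, n = 5) on the log2 CPM scale in the WT clones and 3.51 ± 1.01 (SD, n = 5) in the libraries labelled KO. Once the treated partners of KO replicates 4 and 5 were exchanged, the KO value was 3.51 ± 0.50 (SD, n = 5). The exact permutation test of WT against KO responses gave p = 0.817 as labelled and p = 0.667 with that exchange.

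Genes that act beside the ligands were described from lists. Of 7 other ligands of the B7 family 3 were tested and none was called in either genotype, against the 3% and 1.96% of genes called. ILDR2, the most abundant of them by RPKM, stood at 72.4 ± 21.1 CPM (SD, n = 5) before and 38.9 ± 11.7 CPM (SD, n = 5) after IFNγ in the WT clones. Of 13 further inhibitory ligands 9 were tested and 3 were called higher in both genotypes. These were HLA-E, the ligand of NKG2A on NK cells, with log2 fold changes of 3.75 and 3.93, HLA-F with 3.07 and 3.33, and CEACAM1, a ligand linked to TIM-3, with 5.86 and 5.79. HLA-E and HLA-F belong to a family of close copies, so their unique counts are uncertain. Of 7 genes of the nectin and nectin-like family 7 were tested and none was called. NECTIN1 stood at 77.4 ± 4.36 CPM (SD, n = 5) before and 49.1 ± 4.65 CPM (SD, n = 5) after IFNγ in the WT clones, under 2-fold apart. None of the 8 NKG2D ligands, which activate NK cells, was called, with 6 tested.

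Of 27 genes known to regulate CD274, all tested, 7 were called in the WT clones and 6 in the libraries labelled KO, all higher, against the 2.48% and 1.7% of all genes called higher. Among those called in both were IRF1, JAK2, STAT2, IRF9 and SOCS1, and MYC was called in the WT clones. IRF1, a transcription factor of the interferon response, rose by 4.96 and 4.72 on the log2 scale, while the receptor chain gene IFNGR1 was not called at 0.45 and 0.51. CMTM6, which keeps PD-L1 on the cell surface, had log2 fold changes of -0.09 and -0.17 and was not called. Of 14 receptors for checkpoint ligands 10 were tested in the WT clones and 9 in the libraries labelled KO, and of 10 other partners 7 and 8 were tested, with none called. SIRPA, the receptor of CD47, was the most abundant of these receptors per length in the untreated WT clones, at 6.28 RPKM on average. CTLA4, a receptor of CD80 and CD86, stood at 2.74 ± 2.14 CPM (SD, n = 5) untreated and 10.8 ± 3.54 CPM (SD, n = 5) treated there. The 10 blood cell markers summed to 2.64 to 7.20 CPM in the untreated WT clones and to 3.43 to 10.96 CPM in the treated ones, and none of the 3 tested was called. Their part in the rise of the ligands was not tested.

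The genes whose log2 CPM followed each called ligand most closely were taken by Pearson's r over the 20 libraries and 21052 genes. The libraries fall apart into treated and untreated ones, so r describes that split together with the clones and says nothing within either. CD274 was followed by CXCL10 (r = 0.98), NMI and USP30-AS1 (both 0.98), and PDCD1LG2 by LOC100419583, GBP5 and HLA-E (all 0.98). For LGALS9 these were OAS2, PARP14 and RUFY4 (0.97, 0.96 and 0.96), and for CD47 DPYD, FLT3LG and TMEM229B (all 0.97). TNFRSF14 had looser neighbours, LOC100507412, SSTR2 and FAS, with r of 0.92, 0.91 and 0.91.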

How the data were processed

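Gene counts of 20 U2OS libraries were used as the authors deposited them, without normalization. Per the submitters' processing notes and the study's methods, STAR 2.7.9a placed the reads on GRCh38, and featureCounts 2.4.0 assigned uniquely mapped ones to RefSeq genes. The library kit was stranded, and the strand setting of the counting is not given in the sources used here. Libraries were grouped by the genotype, treatment and clone labels, all 20 columns were matched, and no 2 libraries held identical values.

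For 5 against 5 libraries edgeR 4.0.16 in R 4.3.3 was run on those 10 alone (TMM, filterByExpr, robust quasi-likelihood test), with Benjamini-Hochberg adjustment over all genes passing the filter, and for the difference of responses on all 20. The study's methods name DESeq2 with shrinkage, which was run as an alternative (DESeq2 1.42.0). Exact permutation tests were two-sided on log2 CPM with a prior count of 2, with a smallest p of 0.00794. Standard errors and 95% intervals came from edgeR's log2 fold changes and F statistics. RPKM used the deposited gene lengths. Counting intervals cover counting error only. The scripts were tested on simulated data for untreated and treated WT libraries. There edgeR with these cut-offs called 77 of 100 genes changed by 3 on the log2 scale. It called 60 of 100 changed by 1.5, and 1 unchanged gene, so a changed gene can go uncalled.

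The labels give the untreated and treated library of a number as 1 clone. Deviations from the group means over 15115 genes correlated at r of 0.79 to 0.89 in WT pairs and 0.70 to 0.85 in KO replicates 1 to 3, but at -0.01 and 0.06 in KO replicates 4 and 5, and at 0.76 and 0.84 with those exchanged. WT and KO numbers did not pair (-0.26 to 0.24).

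The ligands, the lists and the 500 kb window were chosen with earlier results of these data known. Named genes were the 9 ligands, ZBTB48, list members that were called and at most 4 more per list by level, called genes within 500 kb of CD274 or PDCD1LG2, and the 3 genes with the highest r to each called ligand. Alternatives were other scalings, no filter, DESeq2, all 20 libraries in 1 fit, a replicate block, another cut-off and leaving out each clone. Isoforms and protein were not analysed here. Values of some list genes are not reported here.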

Additional observations from a re-analysis of the deposited data

Results flagged for a closer look

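In groups of 5 the highest and the lowest value were compared with their nearest neighbour by Dixon's test, in 48 groups of ligand levels and within-clone responses, and 6 were flagged. Chance flags about 1 in 20 groups, which is 2.4 of 48.

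For TNFRSF14, KO replicate 2 was flagged 3 times. Its untreated library, at 0.0202 CPM, and its treated library, at 4.28 CPM, lay far below the other libraries of their groups, and its response of 6.29 on the log2 scale lay far above those of the other clones labelled KO. Neighbouring genes were also low in this clone, as described above, and their part in the TNFRSF14 values was not tested.

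For CD47, the treated library of KO replicate 2 was far below its group at 80.2 CPM, and the response of KO replicate 4 was far above its group at 1.87 on the log2 scale. Once the treated partners of KO replicates 4 and 5 were exchanged, the highest CD47 response was 1.62.

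For LGALS9, the response of WT replicate 5 was far above its group at 7.39 on the log2 scale. Its untreated library held 6 counts of LGALS9, the fewest of any library.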

How the results depend on the processing

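The number of ligands called after IFNγ was 4 to 6 under all alternatives in the WT clones and 2 to 5 in the libraries labelled KO, where it was 2 to 5 without 1 clone, 2 being the value without KO replicate 1. Between WT and KO and for the difference of responses it was 0 under all alternatives. DESeq2 with shrinkage was not run for the difference of responses. Genes called after IFNγ were 976 with DESeq2, 2202 at an adjusted p under 0.05 with no fold cut-off and 1414 with the replicate block in the WT clones, and 318 to 457 without 1 clone. In the libraries labelled KO they were 823 with DESeq2, 613 with its shrinkage, 642 with all 20 libraries in 1 fit, 1528 at the looser cut-off, 721 with the replicate block, 1208 with KO replicates 4 and 5 exchanged, and 131 to 490 without 1 clone. Between WT and KO they were 1 to 12 untreated and 2 to 16 treated, against 3. Shrinkage lowered the log2 fold changes of CD274 to 3.15 and 2.51, of PDCD1LG2 to 3.66 and 2.94, of LGALS9 to 2.84 and 2.698 and of TNFRSF14 to 1.78 and 0.54 in the WT clones and the libraries labelled KO.

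No log2 fold change after IFNγ reversed. Between WT and KO small differences reversed. With the replicate block, whose numbers do not pair WT with KO clones, CD274 was 0.028 and TNFRSF14 0.086 untreated, and TNFRSF14 0.12 treated. With library totals LGALS9 was -0.010 treated, and with no filter NECTIN2 was 0.0041 treated. Without 1 clone the untreated differences ranged from -0.25 to 0.23 for CD274, from -0.76 to 0.059 for LGALS9, from -0.027 to 0.34 for CD276, from -0.17 to 0.0054 for PVR and from -0.034 to 0.17 for CD47. The treated ones ranged from -0.039 to 0.33 for CD274, from -0.33 to 0.46 for LGALS9, from -0.045 to 0.035 for NECTIN2, from -0.11 to 0.091 for CD47 and from -0.30 to 0.10 for TNFRSF14. The differences of responses ranged from -0.21 to 0.48 for CD274, from -0.15 to 0.82 for LGALS9 and from -0.13 to 0.035 for CD47. The cause was not tested. The replicate block changed no call of a ligand as labelled. Depth limits LGALS9 in untreated libraries, TNFRSF14 in KO replicate 2 and VSIR throughout.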
